A study of Mus musculus with 2 samples.

Results

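Neurogenic retinal precursors of the mouse eye at e13.5 were taken as single cells with transcripts of at least 4 of 9 genes of early neurogenesis, among them Atoh7 or Neurog2, and no transcript of 4 genes of later cell fates. The 9 rule genes were Atoh7, Neurog2, Hes6, Dll1, Dll3, Dll4, Olig2, Gadd45a and Btg2, and the 4 excluded genes were Crx, Pou4f2, Ptf1a and Lhx1. Of 11893 cell barcodes with 200 or more detected genes and at most 15% mitochondrial transcripts, 668 met the rule. The control library held 314 of them among 5519 barcodes and the mutant library 354 among 6374.

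Control eye cups were Myrf fl/fl and mutant eye cups were Rx>cre Myrf fl/fl, so that both genotypes carried floxed alleles of Myrf, a membrane-bound transcription factor gene, and the mutant added a Cre recombinase driven by an Rx transgene. Rx drives expression in the early eye field, from which the neural retina and the pigment epithelium both arise, and Cre was therefore not confined to the cells described here. Each genotype gave 1 library of 3 pooled eye cups at e13.5, freed of cornea, lens and optic nerve, and Cre itself and the loss of Myrf cannot be told apart in this design. Myrf gave 8 UMIs (unique molecular identifiers, 1 per captured transcript) in the control precursors and 2 in the mutant precursors, which is too few to check the deletion in these cells.

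Retinal neurons arise from dividing progenitors that begin to express proneural basic helix-loop-helix (bHLH) factors. Atoh7 is required for ganglion cells, and Neurog2 drives cell cycle exit and neuronal differentiation in many parts of the nervous system. Such a cell also presents Delta ligands to its neighbours, whose Notch receptors then raise the repressors Hes1 and Hes5 and hold the proneural genes down, a process known as lateral inhibition.

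The libraries held 63483835 UMIs over 6039 barcodes in the control and 75228861 UMIs over 6754 barcodes in the mutant. The precursors had a median of 14567.5 UMIs per cell (control) and 12627.5 (mutant). Scrublet marked 5 of the control and 7 of the mutant precursors as doublets, and both kept their place in the values below. In all, 72 barcode sequences occurred in both libraries. All levels are in CPM, that is, a gene's summed UMIs in a class per 1000000 UMIs of the whole class. Since each genotype had a single library, nothing was tested between them. All intervals are 95% intervals of counting error alone (exact Poisson for a sum, exact Clopper-Pearson for a share, Newcombe for a difference of shares, exact conditional binomial for a ratio), and log2 ratios have 1 UMI added to each sum.

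Precursors made up 5.69% of the control barcodes (5.09 to 6.33) and 5.55% of the mutant barcodes (5.00 to 6.14). The mutant share was 0.136 percentage points lower, with an interval from 0.972 lower to 0.692 higher (difference -0.136, from -0.972 to 0.692). Among cells that could be assigned to a retinal class (precursors, progenitors, ganglion cells and photoreceptor precursors), they made up 20.8% of 1507 control cells and 19.8% of 1786 mutant cells, a difference of -1.02 points (-3.79 to 1.73). Both intervals of the difference hold 0. Cells with Atoh7 or Neurog2, fewer than 4 rule genes and no excluded gene were in no retinal class and so not in these totals. With 3 of 9 rule genes the retinal shares were 34.5% (32.3 to 36.7) and 30.5% (28.5 to 32.5), so the reading depends on the rule, and none of these values is a test between genotypes.

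The classes set beside them were defined by marker rules of the same kind. Progenitors had 3 or more of 5 progenitor genes such as Sfrp2 and Rax, no Atoh7 or Neurog2 and none of the excluded genes. They numbered 895 in the control and 1017 in the mutant. They also held no UMI of the pigment gene Tyrp1, which the rule of the precursors did not ask. Ganglion cells carried Pou4f2, the factor that follows Atoh7 in that lineage, and numbered 269 and 382. They also had 3 or more of the ganglion genes Isl1, Elavl4, Stmn2, Gap43, Nefl and Ebf1. Photoreceptor precursors carried Crx, the cone and rod factor, and numbered 29 and 33. They also had 2 or more of the photoreceptor genes Otx2, Prdm1, Rxrg, Thrb, Neurod1 and Gngt2. Levels of such genes in the class they helped to choose follow in part from the choice.

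Since the 9 rule genes chose the precursors, their levels describe the cells and support nothing. Atoh7 stood at 4254 CPM in the control and 5071 CPM in the mutant precursors, and at 3559 and 3289 CPM in ganglion cells. Neurog2 stood at 476 and 568 CPM, against 10.6 and 9.28 CPM in ganglion cells and 117 and 30.7 CPM in photoreceptor precursors. Of the proneural pair, Atoh7 alone was at a like level in ganglion cells. Hes6, a relative of Hes1 that counters it, was at 1386 and 1428 CPM, and at 623 and 560 CPM in ganglion cells.

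Among the Delta ligands of Notch, Dll1 was at 59.3 CPM in the control and 71.8 CPM in the mutant precursors. Dll4 was at 54.9 and 49.6 CPM, against 6.04 and 6.38 CPM in ganglion cells. Dll3, an atypical Delta protein that acts inside the cell, was at 46.4 and 41.3 CPM and was as high in ganglion cells, at 50.5 and 43.5 CPM. Olig2, a bHLH factor of progenitors close to their last division, was at 38.1 and 41.6 CPM, and ganglion cells held 3 and 0 UMIs of it. The growth arrest gene Gadd45a was at 706 and 735 CPM and the antiproliferative gene Btg2 at 199 and 256 CPM.

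**Figure D1:**
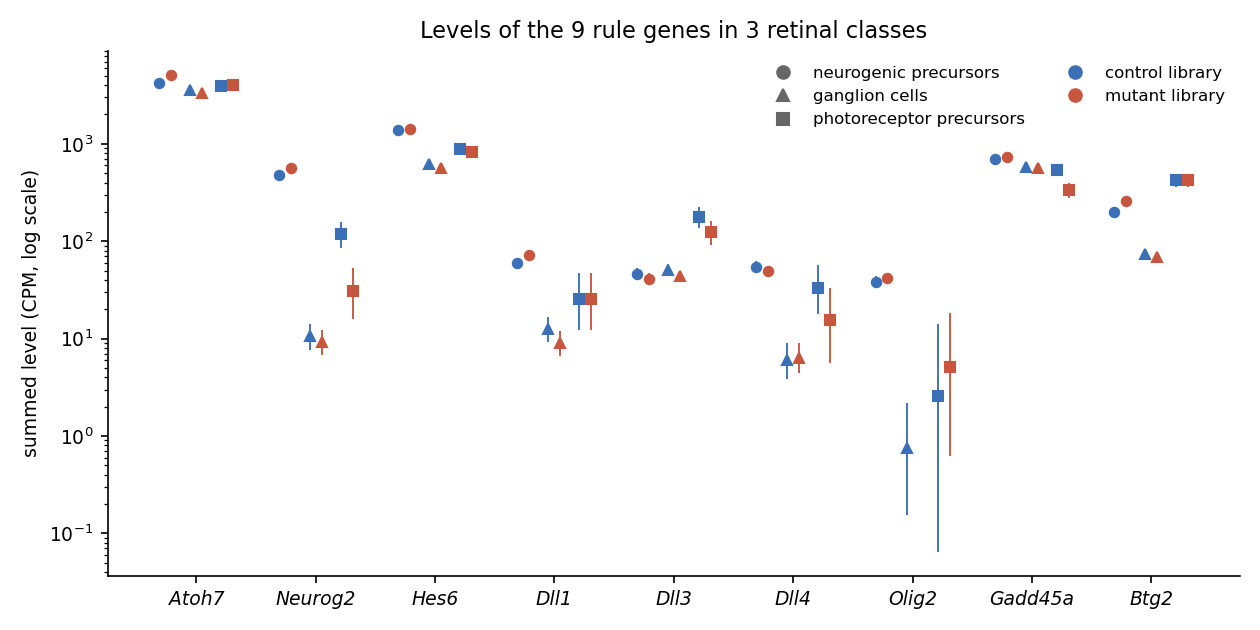
Level in CPM (log axis) of each of the 9 rule genes in precursors (circles), ganglion cells (triangles) and photoreceptor precursors (squares) of the control and mutant libraries, with 95% Poisson intervals as bars. Neurog2, Dll4 and Olig2 were far higher in precursors than in ganglion cells, whereas Atoh7, Dll3 and Gadd45a were at like levels in both, and a class with 0 UMIs is not drawn. The rule chose the precursors by these genes, so the levels describe the cells only.

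Against all other passing barcodes, which include the ganglion and photoreceptor classes, the rule genes named here were higher in both libraries. This follows from the rule and supports nothing. Neurog2 was at 10.1 CPM in the other control barcodes and 10.3 CPM in the other mutant barcodes, Olig2 at 0.431 and 0.287 CPM, and Dll4 at 1.93 and 1.46 CPM. Atoh7 was at 411 and 359 CPM in the other barcodes, not all of which were assigned to a class. Of genes the rule had not used, Neurod1, a neurogenic bHLH gene, was at 163 and 173 CPM in precursors and 10.4 and 8.15 CPM over all other barcodes. Neurod1 was at 657 and 602 CPM in photoreceptor precursors, which it helped to choose. Hes5 was at 598 and 542 CPM in precursors against 103 and 85.8 CPM over all other barcodes.

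The rule asks for single UMIs, and cells at its edge differed in level from those well inside it. With 3 rule genes, 1 short of the rule, there were 314 further control cells and 274 further mutant cells. Exactly 4 rule genes were found in 133 control and 132 mutant precursors, and all 9 in 19 and 16. From the cells with 3 rule genes to those with 4, Atoh7 went from 350 to 1618 CPM in the control and from 372 to 1478 CPM in the mutant. Tubb3, a neuronal tubulin, went from 124 to 298 CPM and from 180 to 622 CPM. The step in Neurod1 was from 5.75 to 19.8 CPM and from 5.59 to 23.6 CPM, so that cells just inside the rule held far less Neurod1 than the class as a whole. Atoh7 and Neurog2 together gave 3 or fewer UMIs in 83 control and 68 mutant precursors. Median Atoh7 counts were 16.5 and 30 UMIs per cell, with a highest value of 456 and 349. Of the precursors, 234 in the control and 230 in the mutant also carried 3 or more of the 5 progenitor genes.

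The excluded genes removed nearly as many cells as they left. Before exclusion, 594 control and 679 mutant cells met the rule on the 9 genes, and 280 and 325 of them were left out. Pou4f2 was found in 216 and 248 of those, Ptf1a, an amacrine and horizontal cell factor, in 44 and 52, and Crx in 34 and 32. A single Pou4f2 UMI alone excluded 35 control and 32 mutant cells. Lhx1, a horizontal cell gene, was found in 1 and 3.

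Because deeper cells meet such a rule more readily, each cell was thinned at random to 5000 UMIs before shares of cells with a UMI were compared, which left out 49 control and 62 mutant precursors. After thinning, Atoh7 was found in 71.3% (65.5 to 76.7) of 265 control and 75.3% (70.0 to 80.2) of 292 mutant precursors, against 91.4% and 92.7% unthinned. Red blood cells should lack it and had medians of 22464 and 22750 UMIs. They showed an Atoh7 UMI in 8.33% and 4.75% of cells after thinning. This share describes free RNA in red blood cells thinned to 5000 UMIs only, and the rule itself used unthinned counts. Precursors were shallower, with medians of 14567.5 and 12627.5 UMIs, so thinning kept a larger part of their UMIs. The share may therefore understate the background in precursors. Neurog2 was found in 45.3% (39.2 to 51.5) and 55.1% (49.2 to 60.9) of precursors, in 4.46% and 5.10% of ganglion cells and in 1.11% and 0.75% of red blood cells. Unthinned, the Neurog2 shares of precursors were 60.8% and 63.8%. Unthinned control red blood cells showed Atoh7 in 23.3%, Gadd45a in 32.9% and Btg2 in 15.5% of cells. Hes6 was found in 9.59% of them, Neurog2 in 1.83%, and Dll1, Dll3, Dll4 and Olig2 each in 0.913% or less. A single Atoh7 UMI was found in 60 control and 56 mutant precursors, and the part of free RNA in meeting the rule was not tested.

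Neurod1, which no rule of the precursors used, was found in 34.0% (28.3 to 40.0) of control and 39.7% (34.1 to 45.6) of mutant precursors. Its share was 0.745% and 0.390% in progenitors and 15.6% and 13.1% in ganglion cells. In photoreceptor precursors, which Neurod1 helped to choose, the share was 82.8% and 83.9%. Red blood cells showed a Neurod1 UMI in 0 of 180 control cells, which allows a share of up to 1.67% (3 counts of the total), and in 0.250% of mutant cells. Unthinned, the Neurod1 shares were 43.6% and 46.6% of precursors.

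To describe what the precursors share beyond the rule, their summed counts were set against those of the progenitors within each library, leaving out genes used by either rule. Of 10200 genes with enough UMIs (50 or more over both classes in each library), 227 were at least 2-fold higher in precursors in both libraries, which is 2.23%, and 55 were at least 2-fold lower in both, which is 0.539%. The sign was the same in both libraries for 7269 genes. Progenitors were chosen for lacking Atoh7 and Neurog2, so genes that run with these may differ by the choice of cells, and the counts are a description.

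Among Notch receptors and effectors, 4 of 13 genes tested were 2-fold higher in precursors in both libraries and 0 were lower, beside 227 and 55 of 10200. The median log2 ratio was 0.39 in the control and 0.24 in the mutant, beside 0.04 and -0.0042 over all genes tested. Notch1, the main receptor in the retina, was at 60.8 CPM in control and 62.1 CPM in mutant precursors and at 23.7 and 24.4 CPM in progenitors. Rbpj, the DNA-binding partner of the cleaved receptor, was at 135 and 138 CPM against 47.5 and 49.3 CPM. Of 6 genes tested in the list of other ligands and modifiers, 2 were higher: Mfng, a glycosyltransferase that modifies Notch, was at 96.6 and 98.5 CPM against 8.03 and 6.23 CPM, and its relative Lfng at 22.3 and 14.8 CPM against 6.25 and 5.82 CPM.

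The effectors Hes5 and Hes1 went opposite ways. Hes5 was at 598 CPM (576 to 620) in control and 542 CPM (522 to 563) in mutant precursors, and at 209 and 187 CPM in progenitors, a log2 ratio of 1.52 and 1.54. Hes1 was at 265 and 202 CPM in precursors and 423 and 392 CPM in progenitors, a log2 ratio of -0.68 and -0.96. After thinning, Hes5 was found in 55.1% and 56.2% of precursors against 37.9% and 38.1% of progenitors, and Hes1 in 52.1% and 43.2% against 69.4% and 69.1%. The intervals of both genes did not overlap between the classes in either library. Ganglion cells held both at lower shares, 24.1% and 21.3% for Hes5 and 7.59% and 8.92% for Hes1, and red blood cells at 0.556% and 2.50% for Hes5 and 2.22% and 3.25% for Hes1.

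The promoters of 3 genes high in the precursors are shown because they hold letters known from proneural or Notch control, from the 250 bases before the start in RefSeq's table of build GRCm38.p6, 5′ to 3′ on the gene's strand, in which capitals mark the motif found. Hes6 (chr1:91414039-91414288, minus strand) and Srrm4 (chr5:116591818-116592067, minus strand) hold an E-box, the kind of site that bHLH factors bind, CAGCTG and CAGATG. Hes5 (chr4:154960673-154960922, plus strand) holds the letters TGGGAA of the RBPJ site, once on each strand.
Hes6: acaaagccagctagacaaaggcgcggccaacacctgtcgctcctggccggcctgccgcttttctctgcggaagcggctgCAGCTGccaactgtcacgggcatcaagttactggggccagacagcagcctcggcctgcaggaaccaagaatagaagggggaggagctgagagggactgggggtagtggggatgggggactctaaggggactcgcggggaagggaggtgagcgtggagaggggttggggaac
Hes5: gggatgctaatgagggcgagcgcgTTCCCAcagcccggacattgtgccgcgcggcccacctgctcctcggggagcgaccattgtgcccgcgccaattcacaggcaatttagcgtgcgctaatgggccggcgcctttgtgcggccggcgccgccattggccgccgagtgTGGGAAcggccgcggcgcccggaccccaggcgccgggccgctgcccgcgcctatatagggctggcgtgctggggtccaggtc
Srrm4: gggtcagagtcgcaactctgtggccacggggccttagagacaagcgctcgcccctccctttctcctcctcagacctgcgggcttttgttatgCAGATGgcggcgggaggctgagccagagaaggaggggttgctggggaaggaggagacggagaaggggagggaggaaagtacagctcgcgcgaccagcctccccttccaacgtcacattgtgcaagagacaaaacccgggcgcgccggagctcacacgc
On either strand, CAGCTG was found in 13% of 32851 promoters of that length, CAGATG in 14.4%, CATATG in 3.46% and TGGGAA in 21.6%, so that a single match is common, and a match is a description of the letters and no shown site. The first base of the motif lies 171 bases before the start in Hes6, 226 and 82 in Hes5 and 158 in Srrm4. The windows of Neurog2, Dll4, Olig2, Gadd45a, Insm2, Sstr2 and Dlx2, searched alike, held none of these motifs.

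In the list of proneural and neurogenic bHLH genes, 3 of 10 genes tested were 2-fold higher in both libraries and 1 was lower. Over all genes, 227 and 55 of 10200 were. Neurod1 stood at 1.52 and 0.914 CPM in progenitors, a log2 ratio of 6.67 in the control and 7.44 in the mutant. Bhlhe22, a bHLH gene of amacrine cells and other neurons, was at 41.3 and 62.3 CPM in precursors, with 2 and 13 UMIs in progenitors. The gene that was lower was Id3, an inhibitor of bHLH factors, at 491 and 413 CPM against 1015 and 989 CPM, with log2 ratios of -1.05 and -1.26. Tcf3, which encodes the common bHLH partner E12/E47, was level, with log2 ratios of 0.01 and -0.01.

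Genes of cell cycle exit were higher while the genes of the cycle itself were still on. Of 17 exit genes tested, 7 were 2-fold higher in both libraries and 0 lower, beside 227 and 55 of 10200 over all genes. The exit genes had a median log2 ratio of 0.67 and 1.00. Gadd45g, a growth arrest gene, was at 231 and 200 CPM against 5.00 and 5.65 CPM in progenitors. Insm1, a zinc finger factor of newborn neurons and their last divisions, was at 200 and 210 CPM against 19.5 and 19.2 CPM, and Mybl1, a Myb family factor, at 121 and 129 CPM against 6.61 and 7.23 CPM. Cdkn1a, the inhibitor p21, was at 20.2 and 22.01 CPM against 1.70 and 0.997 CPM.

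None of 24 S phase genes and none of 28 genes of G2 and M phase passed 2-fold in both libraries. All the same, 27 of the 28 G2 and M genes in the control and 28 in the mutant were higher in precursors than in progenitors. Over all genes tested, 5632 of 10200 were higher in the control and 5041 in the mutant. The G2 and M genes had a median log2 ratio of 0.34 and 0.58. Top2a, a mitotic topoisomerase, was at 329 and 369 CPM against 244 and 241 CPM, and Ube2c, a mitotic ubiquitin carrier, at 759 and 753 CPM against 564 and 467 CPM. S phase genes had medians of 0.06 and -0.17. With 3 or more UMIs of the G2 and M list taken as a mark, 90.2% (86.0 to 93.5) of control and 86.0% (81.4 to 89.7) of mutant precursors carried it after thinning, close to 90.01% and 86.8% of progenitors. In ganglion cells, which have left the cycle, the shares were 42.0% and 36.3%, so that the mark by itself does not single out dividing cells. The summed list was at 1542 and 1302 CPM there against 7688 and 7895 CPM in precursors.

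Progenitor genes were lower but far from lost. Of 13 genes tested in the list of progenitor identity, 2 were 2-fold lower in both libraries and 0 were higher. Over all genes, 55 of 10200 were lower and 227 higher. The list's median log2 ratio was -0.36 and -0.64. Fgf3 was at 5.96 and 5.14 CPM against 24.6 and 28.5 CPM, and Fgf15, another growth factor gene of progenitors, at 222 and 200 CPM against 408 and 460 CPM. Zic1, a zinc finger factor, was the other gene past 2-fold, at 29.6 and 28.2 CPM against 63.8 and 59.7 CPM. Pax6, which progenitors and many retinal neurons share, was near level at 375 and 342 CPM against 398 and 381 CPM. Cyclin D1, encoded by Ccnd1, was at 696 and 681 CPM against 608 and 704 CPM.

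General neuronal genes were the list with the highest share past the fold, 11 of 15 in both libraries, beside 227 of 10200 over all genes. The list had a median log2 ratio of 2.22 in the control and 2.14 in the mutant. Tubb3 was at 606 and 750 CPM in precursors, 29.7 and 40.1 CPM in progenitors, and 5312 and 5493 CPM in ganglion cells. Elavl3, a neuronal RNA-binding protein gene, was at 63.6 and 64.4 CPM in precursors and 504 and 474 CPM in ganglion cells. Srrm4, a neuronal splicing factor gene, was at 119 and 144 CPM against 2.41 and 2.58 CPM in progenitors and had come near its level in ganglion cells, 165 CPM in each library. Tubb3 and Elavl3, by contrast, stood at a small part of theirs.

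Genes of all 3 neuronal fates examined were present at low levels. Of 15 ganglion genes tested, 10 were 2-fold higher than in progenitors in both libraries, beside 227 of 10200 over all genes. Most stood far under the ganglion cell level. Isl1, the partner of Pou4f2, was at 27.9 and 61.3 CPM against 1168 and 1161 CPM in ganglion cells, which it helped to choose. Of 5 photoreceptor genes, Mybl1, counted among the exit genes too, and Otx2 were higher. Otx2, which commits cells to photoreceptor and bipolar fate, was at 86.4 and 111 CPM against 11.2 and 10.2 CPM in progenitors. In photoreceptor precursors, which Otx2 helped to choose, it was at 669 and 586 CPM. Of 8 amacrine and horizontal genes, 3 were higher, Prox1, Onecut2 and Onecut1, a horizontal cell factor, the last at 21.9 and 19.7 CPM with 2 UMIs in the progenitors of each library. Crx, Pou4f2, Ptf1a and Lhx1 were at 0 by the rule.

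**Figure D2:**
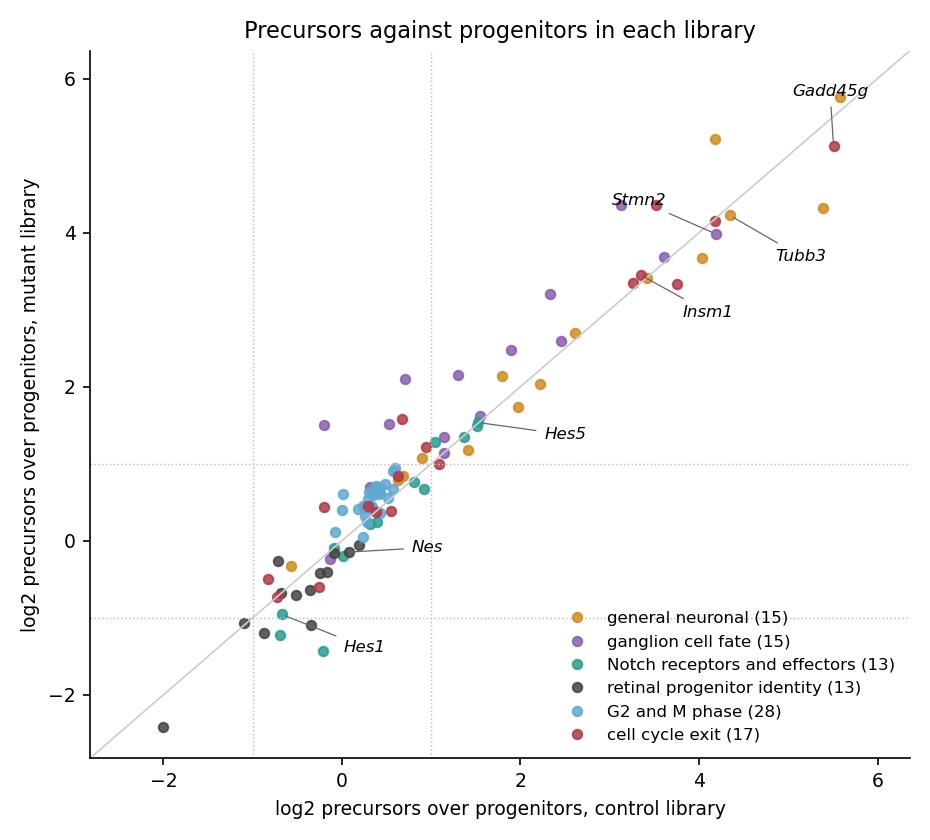
Log2 ratio of precursors over progenitors in the mutant library (vertical) against the control library (horizontal) for the genes tested in 6 lists, 1 point per gene, with dotted lines at 2-fold. General neuronal and exit genes such as Tubb3, Gadd45g and Insm1 lie high in both libraries, Hes5 lies above 2-fold and Hes1 below 0.

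The 12 highest ratios over all genes, ranked by the smaller of the libraries' values, belonged to Sstr2, Cpa3, Myog, Neurod1, Insm2, Dlx2, Bhlhe22, Rassf4, Gal, Srgn, Srrm4 and Acta2. Sstr2, a somatostatin receptor gene, was at 87.6 CPM in control and 79.2 CPM in mutant precursors, with 1 and 0 UMIs in all progenitors. It was found in 24.2% and 25.7% of the precursors. Insm2, a relative of Insm1, was at 49.1 and 43.0 CPM with 5 and 4 UMIs in progenitors, and Dlx2, a homeobox factor of ganglion and amacrine cells, at 43.8 and 62.5 CPM with 6 and 8 UMIs. Both were higher still in ganglion cells, Insm2 at 74.9 and 88.9 CPM and Dlx2 at 75.4 CPM in each library. Gal, which encodes the neuropeptide galanin, was at 235 and 152 CPM and at 607 and 671 CPM in ganglion cells. Rassf4 was at 135 and 152 CPM and at 274 and 257 CPM in ganglion cells, and was found in 50.6% and 59.0% of precursors, the widest spread of the 12 beside Srrm4 in 52.9% and 55.1%.

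Cpa3, Myog, Srgn and Acta2 were of another kind. Cpa3, a mast cell protease gene, was found in 0.637% and 0.282% of the precursors, and 1 cell gave 57.3% and 100% of its UMIs. Myog, a muscle bHLH gene, was found in 0.955% and 1.13%, with 94.1% and 63.4% from 1 cell, and Srgn and Acta2 in 2.23% or 2.26% of cells at most. The UMIs of these 4 genes thus came from few of the precursors, and what kind of cells those were was not tested.

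At the other end, the 12 lowest ratios belonged to A730049H05Rik, Wfdc1, Fgf3, Stum, Aldh1a3, Cdh6, Necab2, Clec18a, Rab38, Cntnap2, Folr1 and Ano1. Wfdc1, a secreted protease inhibitor gene, was at 23.6 and 16.7 CPM in precursors and 102 and 94.0 CPM in progenitors. Aldh1a3, the retinoic acid enzyme of ventral retina, was at 70.0 and 60.7 CPM against 236 and 195 CPM, and Aldh1a1, its dorsal counterpart, at 120 and 126 CPM against 242 and 285 CPM. Each was the 1 gene past the fold of the 7 tested in its list, ventral and dorsal, beside 55 of 10200 lower over all genes.

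Within each library, precursors and cells with 3 or more progenitor genes were also placed by their number of rule genes. That is how many of the 9 had a UMI after thinning to 5000 UMIs. Whether this number orders the cells in time was not tested, and cells with an excluded gene were left out. Cells taken for their progenitor genes also had no Tyrp1 UMI, which was not asked of precursors. Each bin from 0 to 7 or more held 31 cells or more. Bins 0 to 2 were mostly cells taken for their progenitor genes, bin 3 held 37 precursors of 69 cells in the control and 36 of 61 in the mutant, and cells with 4 or more were precursors except for 1 mutant cell. The selection of cells thus changes between 3 and 4 rule genes, and its part in the steps there was not tested. Hes1 was near level from 0 to 3 rule genes, 417, 395, 382 and 423 CPM in the control and 381, 404, 366 and 456 CPM in the mutant. It was at 242 and 218 CPM at 4 and went down to 32.3 and 30.4 CPM at 7 or more. Fgf15 and Id3 were also lower at 7 or more than at 0. Fgf15 went from 444 and 474 CPM to 58.1 and 52.2 CPM, and Id3 from 1068 and 991 CPM to 64.5 and 56.5 CPM.

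Hes5 was highest in the middle bins instead. It was at 213 and 164 CPM with 0 rule genes, 655 and 505 CPM with 3, 1025 and 1036 CPM with 4, and 271 and 509 CPM with 7 or more. Insm2 and Dlx2 also had their highest values in the middle. Insm2 reached 126 CPM at 4 rule genes in the control and 85.1 CPM at 5 in the mutant, with 19.4 and 43.5 CPM at 7 or more, while Dlx2 reached 135 and 123 CPM at 5 and stood at 38.7 and 69.6 CPM at 7 or more. Gal was highest at 4 in both libraries, 684 and 452 CPM, and was at 6.45 and 95.7 CPM at 7 or more.

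Other genes were high at 7 or more rule genes. Neurod1 went from 1 UMI in each library at 0 rule genes through 94.7 and 75.8 CPM at 4 to 703 and 448 CPM at 7 or more. Insm1 went from 14.8 and 19.1 CPM to 703 and 587 CPM, Gadd45g from 4.34 and 4.68 CPM to 806 and 400 CPM, and Otx2 from 9.54 and 12.6 CPM to 439 and 430 CPM, almost wholly beyond 4 rule genes. Tubb3 at 4 was near its level at 7 or more, going from 235 and 279 CPM at 3 to 1032 and 1000 CPM at 4 and 935 and 1196 CPM at 7 or more. Top2a was at 256 and 222 CPM at 0 and at its highest at 7 or more, 600 and 548 CPM.

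**Figure D3:**
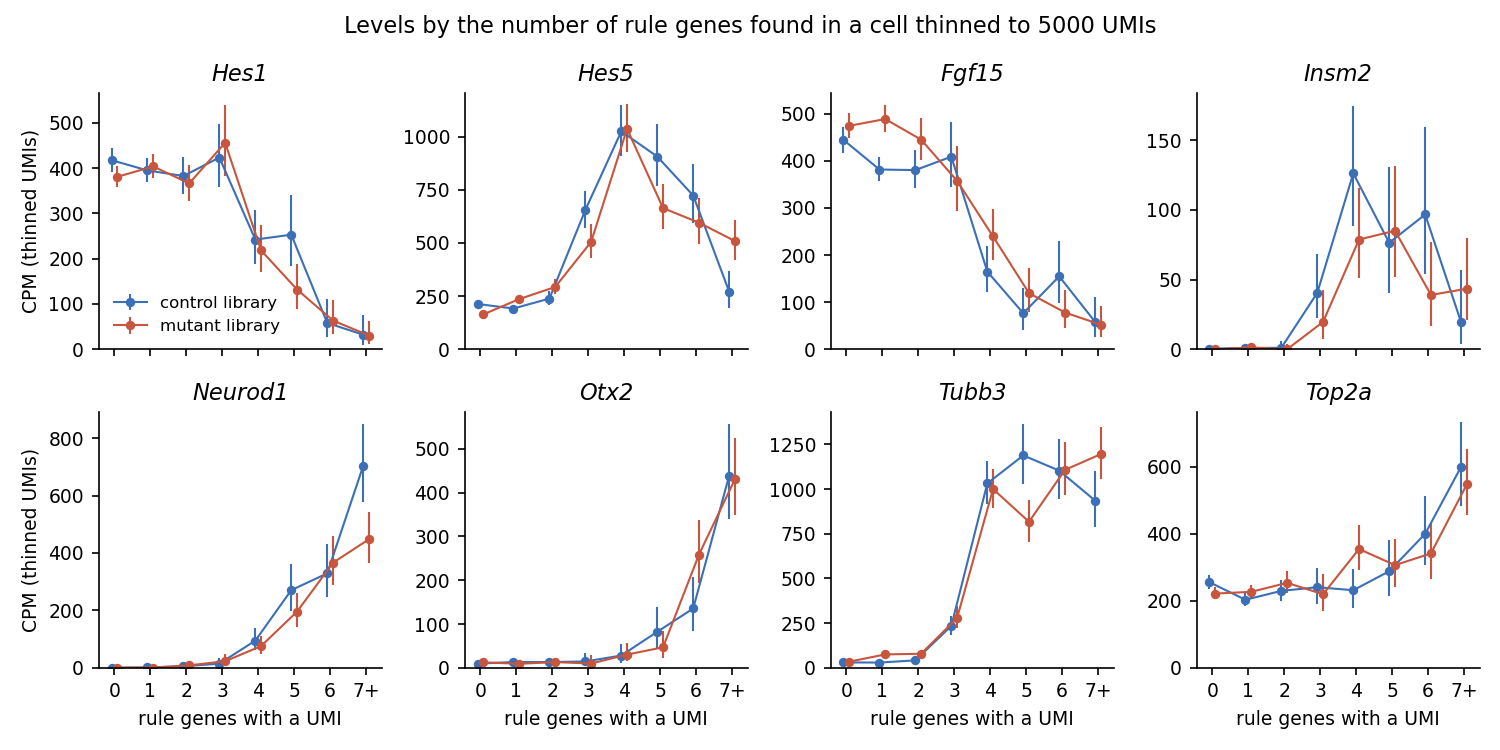
CPM of 8 genes that the rule did not use against the number of the 9 rule genes with a UMI after thinning each cell to 5000 UMIs (0 to 7 or more), for the control and mutant libraries, with 95% Poisson intervals as bars. Hes1 and Fgf15 are lower beyond 3 rule genes, Hes5 and Insm2 peak at 4 or 5, Neurod1, Otx2 and Top2a are highest at 7 or more, and Tubb3 steps up between 3 and 4.

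The precursors were not uniform, and the proneural genes divided them. After thinning, both Atoh7 and Neurog2 were found in 92 control and 122 mutant precursors, Atoh7 without Neurog2 in 97 and 98, Neurog2 without Atoh7 in 28 and 39, and neither in 48 and 33. A gene with no UMI at this depth may still be expressed at a low level. Neurod1 was at 424 and 363 CPM in cells with both genes and 67.9 and 63.9 CPM in cells with Atoh7 alone, a log2 ratio of 2.63 and 2.49. Otx2 was at 226 and 229 CPM against 30.6 and 43.7 CPM, Insm1 at 470 and 406 CPM against 60.6 and 87.4 CPM, and Sstr2 at 231 and 169 CPM against 43.3 and 37.8 CPM.

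Other genes were higher in cells with Atoh7 without Neurog2. Nefm, a neurofilament gene, was at 49.96 and 78.3 CPM in cells with Atoh7 alone and 6.23 and 6.92 CPM in cells with both, a log2 ratio of -2.87 and -3.40. Gal was at 652 and 306 CPM against 69.9 and 69.7 CPM, Gap43, an axon growth gene, at 64.6 and 50.9 CPM against 12.5 and 17.0 CPM, and Isl1 at 60.6 and 92.6 CPM against 16.6 and 45.8 CPM. Hes1 and Id3 were also higher with Atoh7 alone, Hes1 at 362 and 249 CPM against 114 and 104 CPM. Hes5 was at 1145 and 791 CPM against 415 and 532 CPM. Insm2 was higher with Atoh7 alone by 2.74 on the log2 scale in the control and by 0.98 in the mutant, the least alike of the genes named here (log2 ratios of both over Atoh7 alone -2.74 and -0.98).

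In cells with Neurog2 without Atoh7, the following levels were found. Tubb3 was at 40.6 and 33.9 CPM there, against 748 and 792 CPM in cells with both genes, and Elavl3, Sstr2 and Dlx2 gave 0 UMIs in either library. Sfrp2, a progenitor gene, was at 2447 and 2365 CPM against 1065 and 607 CPM in cells with Atoh7 alone, and Fgf15 at 400 and 409 CPM against 231 and 160 CPM.

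**Figure D4:**
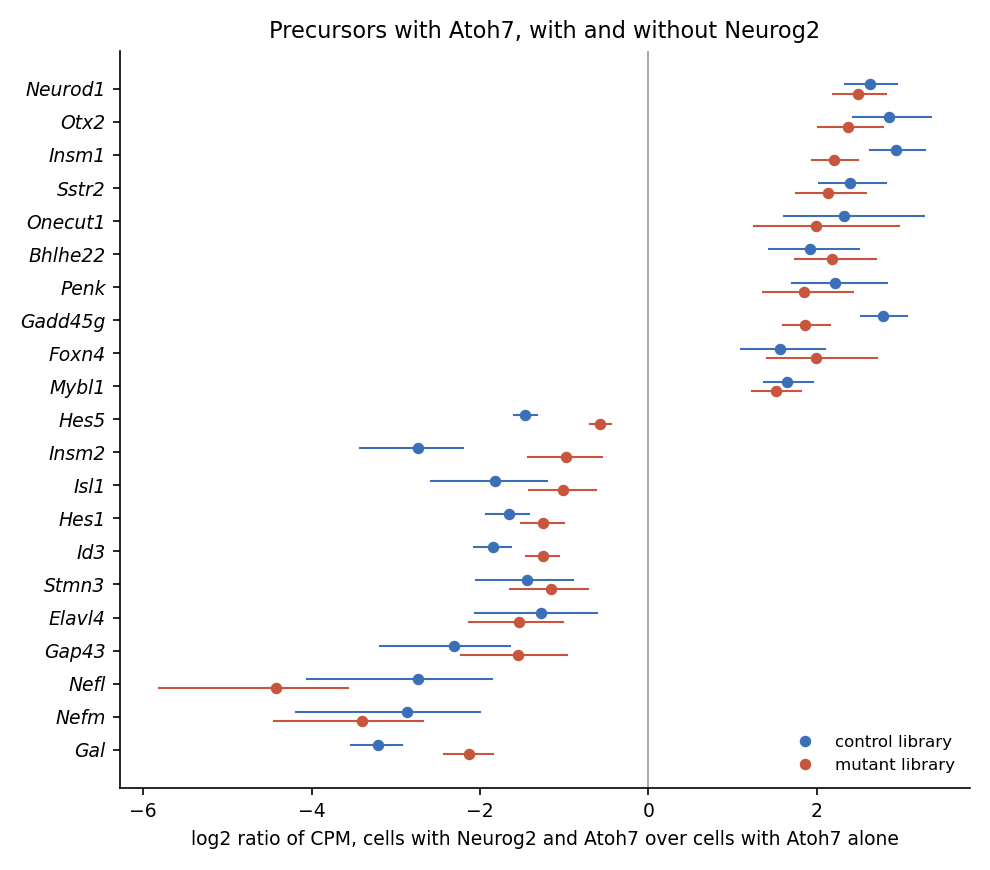
Log2 ratio of precursors with both Neurog2 and Atoh7 over precursors with Atoh7 and no Neurog2 for 21 genes that the split did not use, in the control and mutant libraries, with 95% intervals as bars. Neurod1, Otx2 and Insm1 are higher with both genes in each library, and Nefm, Nefl and Gal higher with Atoh7 alone.

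Cells with Olig2 numbered 24 control and 36 mutant precursors after thinning. An Otx2 UMI was found in 18 of the 24 control cells, 75% (53.3 to 90.2), and in 23 of the 36 mutant cells, 63.9% (46.2 to 79.2), against 15.8% and 15.2% of the precursors without Olig2. Otx2 was at 453 and 412 CPM against 46.7 and 66.0 CPM. Sstr2 was at 515 and 298 CPM against 42.3 and 49.2 CPM, Penk, which encodes proenkephalin, at 232 and 168 CPM against 24.2 and 32.01 CPM, and Prdm1, a photoreceptor factor, at 43.7 and 24.3 CPM against 2.90 and 5.34 CPM. Onecut1 was at 110 and 58.9 CPM against 12.1 and 14.1 CPM. These levels are sums over the cells and do not show whether a single cell held both Otx2 and Onecut1. Hes1 was at 50.6 and 50.2 CPM against 294 and 228 CPM, and Top2a at 787 and 757 CPM against 280 and 313 CPM. Neurog2 was found in 91.7% and 83.3% of the cells with Olig2, against 40.7% and 51.2% of those without. Atoh7 was found in 95.8% and 97.2%, against 68.9% and 72.3%. These are all rule genes, so the rule has a part in these shares.

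The Delta ligands were not spread alike. Dll4 cells numbered 48 in the control and 63 in the mutant after thinning, and Hes1 was found in 16.7% and 11.1% of them against 59.9% and 52.0% of the other precursors. Neurod1 was found in 85.4% and 79.4% of Dll4 cells against 22.6% and 28.8%. In Dll1 cells, 62 and 92, Hes1 was found in 50% and 34.8% against 52.7% and 47.0%, and these intervals overlapped in both libraries. Hes5 was found in 41.7% and 47.6% of Dll4 cells and in 53.2% and 63.0% of Dll1 cells.

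Precursors without the mark of G2 and M genes, 26 in the control and 41 in the mutant, differed from the rest in neuronal genes such as those that follow. Stmn2, a neuronal microtubule gene, was at 872 and 762 CPM in them and 77.7 and 182 CPM in the rest, Isl1 at 147 and 248 CPM against 14.2 and 32.6 CPM, and Tubb3 at 1731 and 1965 CPM against 475 and 552 CPM. Neurod1 was at 139 and 97.4 CPM against 164 and 184 CPM.

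Between the genotypes, the rule genes of the precursors differed by at most 0.36 on the log2 scale (Btg2), with Atoh7 and Neurog2 each at 0.25. Of 9320 genes with 50 or more UMIs over both libraries, 133 were at least 1.5-fold higher in mutant precursors, which is 1.43%, and 513 at least 1.5-fold lower, which is 5.5%. The median log2 ratio over all of them was -0.066. With the class limited to cells with 4 or more UMIs of Atoh7 and Neurog2 (231 control and 286 mutant cells), 108 were higher and 292 lower of 8137, and 47 and 126 of these were among the first.

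The 8 lowest ratios of mutant over control, among genes with 100 or more UMIs, belonged to Mpo, Fcrls, Spi1, Ctss, C1qb, Pf4, C1qc and C1qa, genes of macrophages and other blood cells. C1qb, a complement gene, gave 419 UMIs in 5 control precursors and 4 UMIs in 3 mutant precursors, and 1 control cell gave 99.4% of the 334 UMIs of Mpo. All 8 genes tested of the macrophage list were lower, beside 5905 of 9320 over all genes. The list's summed level was 415 CPM in the control and 17.3 CPM in the mutant. At least 4 of its genes were found in 5 control and 0 mutant precursors. Csf1r and Mrc1 were at 0 in the mutant. Across all passing barcodes other than precursors C1qb was not lower in the mutant, with a log2 ratio of 0.26. With 4 or more proneural UMIs none of the list had enough UMIs to be tested. Over all genes tested, 3415 of 9320 were higher and 5905 lower. The other lists of blood and vessel cells moved too. All 10 red blood cell genes tested were higher, with a median log2 ratio of 1.63 and summed levels of 9760 and 33117 CPM. All 6 endothelial genes tested were lower, with a median of -2.35 and summed levels of 162 and 50.2 CPM. The part of these cells' transcripts in the counts of 133 and 513 was not tested.

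Wdfy1, Sncg, Myog, Actc1, Car2, Alas2 and Myod1 were among the 8 highest ratios. Wdfy1, which encodes an endosomal adaptor protein, gave 26 UMIs in 24 control precursors and 250 UMIs in 162 mutant precursors, a log2 ratio of 3.17 (2.63 to 3.86). It differed alike in progenitors (3.15) and in all other passing barcodes (2.63), so that the difference was not one of the precursors. Sncg, a synuclein gene, belongs to the ganglion list too, and 1 mutant cell gave 52.9% of its UMIs. Myog, Actc1 and Myod1 are muscle genes found in 3 control cells each and in 4 or 5 mutant cells, and Car2 and Alas2 are genes of red blood cells.

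Ganglion genes were higher in the mutant precursors under the rule as given, 9 of 17 tested (none lower), and the list had a median log2 ratio of 0.74. Isl1 was at 27.9 CPM in the control and 61.3 CPM in the mutant, with a log2 ratio of 1.13 (0.84 to 1.45), and Stmn2 at 157 and 263 CPM, with a ratio of 0.74 (0.61 to 0.87). Nefl, a neurofilament gene, was at 20.4 and 72.2 CPM, and 1 mutant cell gave 36.8% of its UMIs. The count changed with the number of rule genes required. With 5 of 9 rule genes it was 1 of 10 with a median of -0.17, with 6 of 9 it was 1 of 10 with a median of -0.24, and with the rule applied after thinning 0 were higher and 2 lower of 14. With the excluded genes not used, so that cells with Pou4f2 stayed in, it was 1 of 20 with a median of 0.10. In cells with Xist and no Y-linked UMI it was 1 of 13, with 1 lower, and in cells with Y-linked UMIs and no Xist 9 of 14. With 4 or more proneural UMIs it was 7 of 16 with a median of 0.42. Over all genes tested, 133 of 9320 were higher under the rule as given, 99 of 7815 with 5 and 102 of 6538 with 6 rule genes. With the rule applied after thinning 81 of 4654 were higher and 195 lower, and with the excluded genes not used 141 of 10932 were higher. For cells with Xist 142 of 6637 were higher and 469 lower, for cells with Y-linked UMIs 225 of 6222 were higher, and with 4 or more proneural UMIs 108 of 8137. Isl1 had a ratio of 0.65 (0.25 to 1.08) with 5 and 0.82 (0.34 to 1.35) with 6 rule genes, and 0.18 (-0.14 to 0.51) with the rule applied after thinning. Stmn2 had 0.30 (0.13 to 0.48) with 5, 0.23 (0.04 to 0.43) with 6, and -0.39 (-0.55 to -0.23) with the rule applied after thinning.

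**Figure D5:**
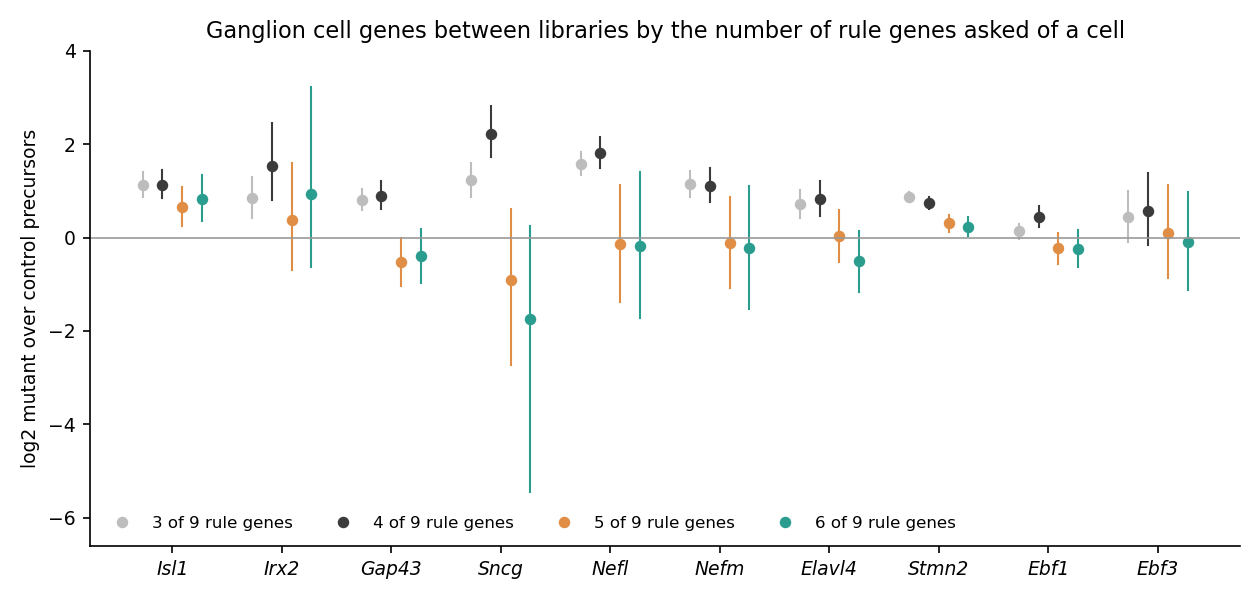
Log2 ratio of mutant over control precursors for 10 genes of the ganglion cell list when 3, 4, 5 or 6 of the 9 rule genes are required (4 points per gene, bars are 95% intervals). The genes drawn lie above 0 with 3 and 4 rule genes (list median 0.57 and 0.74) and, Isl1, Irx2 and Stmn2 apart, near or below 0 with 5 and 6 (list median -0.17 and -0.24).

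Genes that guide neurogenesis differed less. Neurod1 had 766 UMIs in control and 843 in mutant precursors, a log2 ratio of 0.09 (-0.05 to 0.23), and Insm1 a ratio of 0.07 (-0.06 to 0.20). Bhlhe22 had a ratio of 0.59 (0.33 to 0.86) and Neurod4, a bHLH gene of amacrine and photoreceptor lineages, one of 0.88 (0.27 to 1.57) from 32 and 62 UMIs. Of the 11 genes tested in the bHLH list 3 were past 1.5-fold higher, these among them, and 0 lower, beside 133 and 513 of 9320 over all genes. The list count was 1 of 11 with 4 or more proneural UMIs, beside 108 of 8137. It was 0 of 10 with 5 or 6 of 9 rule genes, beside 99 of 7815 and 102 of 6538.

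In the Notch list, Hes1 was lower in the mutant precursors, -0.39 (-0.51 to -0.27), and Hes5 less so, -0.14 (-0.22 to -0.06). In progenitors their ratios were -0.11 and -0.16. The receptor genes Notch2 and Notch3 had ratios of -0.61 (-0.97 to -0.26) and -0.79 (-1.45 to -0.17), from 167 and 113 UMIs and from 59 and 35 UMIs, and were the 2 of 13 past 1.5-fold. Over all genes tested, 513 of 9320 were that much lower. In the Notch list 0 of 14 were past 1.5-fold lower with 3 of 9 rule genes, beside 621 of 10921 over all genes. With 5 of 9 rule genes it was 0 of 11, beside 352 of 7815, and with 4 or more proneural UMIs 1 of 13, beside 292 of 8137. Genes lower by any amount numbered 8 of 13 under the rule as given and 13 of 13 with 4 or more proneural UMIs. Over all genes they numbered 5905 of 9320 and 5130 of 8137. In cells with Y-linked UMIs and no Xist, 4 of 9 Notch genes were lower. Hes1 had a ratio of -0.45 (-0.63 to -0.27) with 5 and -0.68 (-0.96 to -0.40) with 6 rule genes. With the rule applied after thinning it was -0.53 (-0.89 to -0.18). Cdkn1c, the inhibitor p57, had a ratio of 0.63 (0.55 to 0.71), and -0.0031 with 4 or more proneural UMIs. Gngt2, a cone transducin gene, had 46 UMIs in 14 control cells and 5 in 3 mutant cells, a ratio of -3.02 (-4.94 to -1.92). With 4 or more proneural UMIs, where the macrophage list could not be tested, it had 6 and 1 UMIs and a ratio of -2.07 (-8.37 to 0.20). The macrophage genes, with 4 or more of them in 5 control and 0 mutant precursors, were also lower in the mutant, and their part in this ratio was not tested. Otx2 had a ratio of 0.36 (0.18 to 0.56).

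Cycle genes of the precursors were close between the libraries. Of the 28 G2 and M genes, 0 were past 1.5-fold, with a median log2 ratio of 0.05. Of 24 S phase genes 0 were, though 22 were lower, with a median of -0.17. Over all genes tested, 5905 of 9320 were lower, with a median of -0.066. The share of thinned precursors with 3 or more S phase UMIs was 92.5% in the control and 87.3% in the mutant, a difference of -5.12 points (-10.2 to -0.0505). The same difference was -0.999 points (-3.44 to 1.49) in progenitors. Stress genes were lower, 7 of 13 past 1.5-fold with a median of -0.61, beside 513 of 9320 over all genes. With 4 or more proneural UMIs it was 1 of 8, beside 292 of 8137. Tmem98, which encodes a partner of Myrf, had 123 and 139 UMIs, a ratio of 0.13 (-0.23 to 0.49).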

How the data were processed

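Single-cell 3′ RNA sequencing (10x) of e13.5 mouse eye cups gave 1 library per genotype. The deposited counts are UMI counts per gene and barcode, made by the authors on mm10; the submitters' processing notes name Cell Ranger 7.1.0 and Seurat 4.1.1, the matrix header names software version 3.0.0, and whether introns were counted is not given in the sources used here. Barcodes with 200 or more genes and at most 15% mitochondrial UMIs were kept, and doublets marked by Scrublet (scanpy 1.11.5) were kept. The members and gene lists were chosen with earlier results of these data known. UMIs were summed per class and library, and called past 2-fold (classes, both libraries) or 1.5-fold (genotypes) with a minimum of 50 UMIs per gene. Named genes were the rule and excluded genes, leading members of each list, the 12 highest and lowest class ratios and the 8 highest and lowest genotype ratios among genes with 100 or more UMIs, and Myrf and Tmem98. Alternatives changed filters, the rule, thinning (numpy 2.4.6), gene minimum and totals. Scripts were tested on simulated data. Some named genes are not reported here.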

Additional observations from a re-analysis of the deposited data

Results flagged for a closer look

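Genes of macrophages moved opposite ways in precursors and progenitors, and the differences were not tested. The log2 ratio of precursors over progenitors was 5.03 in the control and -1.13 in the mutant for Fcer1g, 5.50 and -4.36 for Fcrls, 6.37 and -4.65 for Ctss, 5.64 and -3.95 for C1qb, 5.99 and -3.98 for C1qc, and 5.64 and -3.62 for C1qa. The log2 ratio of mutant over control was -3.96 in precursors and 2.20 in progenitors for Fcer1g, -6.88 and 2.98 for Fcrls, -6.75 and 4.27 for Ctss, -6.44 and 3.15 for C1qb, -5.93 and 4.04 for C1qc, -5.93 and 3.34 for C1qa, and -3.61 and 2.22 for Tyrobp. The ratios have 1 UMI added and are no bounds where a class had 0 UMIs. Precursors with 4 or more macrophage markers numbered 5 in the control and 0 in the mutant, and such progenitors 4 and 3. The same ratio was -0.93 in precursors and 0.80 in progenitors for Kit, and -1.42 and 0.85 for Cryab. In all, 14 genes had a 2-fold ratio of precursors over progenitors of opposite direction in the libraries.

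Among barcodes that failed the filters on detected genes and mitochondrial UMIs, and that entered no comparison, 11 of 520 in the control (2.12%) and 10 of 380 in the mutant (2.63%) met the gene rule. A count of 0 would allow a share of up to 0.577% and 0.789% (3 counts of the total).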

How the results depend on the processing

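No paired analysis was possible because each genotype had 1 library and no test was made, and no replicate could be left out. Of the shares and gene counts, 55 values under an alternative stayed near the reported one and 55 moved; of the named genes, 628 stayed, 132 moved and 2 reversed. Shares are of passing barcodes, then of retinal cells, control before mutant; class counts are genes higher or lower in precursors than in progenitors, and the cause was not tested. With 3 of 9 rule genes the shares were 11.4% and 9.85%, then 34.5% and 30.5%, with 18 genes lower in precursors. With 5 of 9 they were 3.28% and 3.48%, then 13.2% and 13.4%, with 176 lower. With the excluded genes not used they were 10.8% and 10.7%, then 37.9% and 36.7%, with 695 higher and 247 lower. A mitochondrial limit of 5% gave 6.78% and 6.64% of passing barcodes. An upper limit of 2000 UMIs gave 1.42% and 2.25%, then 17.2% and 22.5%, with 9 genes higher and 2 lower in precursors and 14 higher and 12 lower in the mutant. An upper limit of 20000 UMIs gave 270 genes lower in the mutant. The rule after thinning gave 16.0% and 16.8% of retinal cells, 164 genes lower in precursors, and 81 higher and 195 lower in the mutant, with Sncg at -0.75. A minimum of 20 UMIs gave 362 genes higher in precursors and 349 higher and 1041 lower in the mutant, and a minimum of 200 UMIs gave 85 higher and 22 lower in precursors and 35 higher and 76 lower in the mutant. Classes thinned to 5000 UMIs gave 113 higher and 25 lower. Cells with Y-linked UMIs gave 225 genes higher and 298 lower in the mutant, and cells with Xist gave Myod1 at -0.11. Thinning to 3000 UMIs gave Neurod1 in 31.4% and Hes5 in 47.3% of mutant precursors, and thinning to 8000 gave Neurod1 in 46.8% of mutant and Hes5 in 63.7% of control precursors. The following were chosen after seeing the data, as were the limit on haemoglobin and the count of ganglion genes under each alternative. With 4 or more UMIs of Atoh7 and Neurog2 the shares were 4.19% and 4.49%, then 16.2% and 16.6%, with 167 genes lower in precursors and 292 lower in the mutant. With 6 of 9 rule genes 274 were lower in precursors and 241 lower in the mutant.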

Other observations

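Of 7 dorsal and 7 ventral genes tested, 1 each was 2-fold lower in precursors than in progenitors in both libraries, Aldh1a1 and Aldh1a3, beside 55 of 10200 over all genes. Among the others, Nr2f1, an orphan nuclear receptor gene of ventral retina, was at 138 CPM in the control and 143 CPM in the mutant precursors, against 271 and 248 CPM in progenitors. Vax2, a ventral homeobox factor, was at 116 and 88.5 CPM against 163 and 138 CPM. The dorsal factor Tbx3 was at 20.8 and 22.8 CPM against 13.7 and 15.9 CPM.

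Of 14 genes tested in the list of cell migration and adhesion, 1 was 2-fold higher in precursors in both libraries, beside 227 of 10200 over all genes. The gene of this list was Igfbpl1, a gene of newborn neurons, at 33.2 and 44.6 CPM against 2.50 and 2.58 CPM in progenitors. The guidance receptor gene Robo2 was at 14.5 and 15.8 CPM against 8.03 and 10.7 CPM, and at 59.6 and 57.8 CPM in ganglion cells. Of 8 targets of p53, Cdkn1a alone was 2-fold higher in both libraries, while Bax, a cell death gene, was at 206 and 194 CPM against 210 and 192 CPM.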
